A study of Mus musculus with 6 samples.

Results

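The genes described here encode the potassium channels, voltage-gated sodium channels and pacemaker channels of the mouse, with their dedicated subunits and 3 non-coding transcripts named after them. They were chosen by name alone, as every gene whose symbol starts with Kcn, with Scn and a digit, or with Hcn, where the symbol was found through the RefSeq accession of an array probe. The rule gave 114 genes with 158 probes, of 20972 genes with a symbol on the array. Transcript levels came from total RNA labelled with the dye Cy3 and hybridised to 6 Agilent whole-genome arrays, 1 sample per array.

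The 6 samples formed 3 groups of 2, all labelled as gastrocnemius, a limb muscle of the calf. MDX_JJ101 samples came from MDX mice given JJ101, described as a bioceramic water, for 10 months. MDX_tap samples came from MDX mice on tap water and B10_tap samples from C57BL/10 mice on tap water, over the same 10 months. The MDX mouse is a model of Duchenne muscular dystrophy that carries a mutation in the dystrophin gene in every cell, and C57BL/10 is its usual wild-type strain. The labels give neither sex nor age nor what the water contains, and they number the replicates without saying whether these were separate mice, so p-values measure only the spread between these samples, which may be technical.

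Potassium channels let potassium leave the cell and so set its resting potential and end the action potential, whereas voltage-gated sodium channels start it. In limb muscle a fast sodium spike is ended by chloride and delayed rectifier potassium currents. In heart muscle a longer action potential is shaped in turn by transient outward, delayed rectifier and inward rectifier potassium currents, and pacemaker channels carry the inward current of spontaneously beating cells. Most pore-forming subunits work with accessory subunits that change how many channels reach the membrane and how they gate.

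Levels are log2 signals set against the 75th percentile of their own array, so that a level of 0 lies at that percentile. Levels of different genes come from different probes and were not compared with each other. A signal counts as detected where the scanner software marked it as well above background. The share of spots so marked was 43.8% and 42.5% on the MDX_JJ101 arrays, 49.6% and 48.1% on the MDX_tap arrays and 51.6% and 51.4% on the B10_tap arrays. The lowest level so marked was -3.33 and -3.29 in MDX_JJ101, -4.14 and -3.90 in MDX_tap and -4.23 and -4.13 in B10_tap, so dim genes could be followed less far down in MDX_JJ101. All arrays lay on 1 slide, with MDX_JJ101 in row 2 and the other groups in row 1, so slide row and JJ101 cannot be told apart. MDX_JJ101 and MDX_tap shared columns 3 and 4, and B10_tap lay in columns 1 and 2, so the effects of genotype and of column cannot be told apart.

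The markers of the labelled tissue bear on every channel gene below. Of 15 heart markers, among them the alpha myosin heavy chain gene Myh6 and the cardiac factors Gata4 and Tbx5, 14 were well above background on all 6 arrays. Of 17 skeletal muscle markers, 6 were well above background on all arrays, and the limb muscle regulators Myod1, Myog and Myf5 and the fast light chain gene Mylpf were so on no array. Myh4, the myosin of the fastest limb fibres, had levels of -5.52 and -5.42 in MDX_JJ101, 0.91 and 3.53 in MDX_tap and 2.62 and 2.28 in B10_tap, with neither MDX_JJ101 array well above background. Clcn1, the chloride channel gene of limb muscle fibres, passed the filter in no group. Between the MDX groups 5 of 14 tested heart markers rose in MDX_JJ101 and 0 fell, 3 of 13 tested skeletal muscle markers rose and 6 fell, and 2 of 4 tested conduction markers fell. Of all 20861 tested genes, 19.9% rose and 16.1% fell at the same threshold, a limma adjusted p under 0.05. The channel levels are therefore those of samples labelled gastrocnemius that carried heart transcripts throughout, and in bulk RNA fewer cells of a type and less RNA per cell cannot be told apart.

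Detection of the channel genes was lowest in MDX_JJ101. On both arrays of the group, 44 of the 114 genes were detected in MDX_JJ101 (38.6%, against 59.0% of all genes with a symbol), 58 in MDX_tap (50.9%, against 64.1%) and 62 in B10_tap (54.4%, against 65.5%). A set of 43 channel genes was detected on all 6 arrays, whereas 44 were at background on every array and 27 were mixed. The 63 genes detected on both arrays of at least 1 group were tested, and the other 51 were not.

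The genes of working heart muscle were among those detected throughout. They included Kcnd2 and Kcnd3, the pores of the fast transient outward current, Kcnh2 and Kcnq1, the pores of the rapid and slow delayed rectifiers, and Kcnj3 and Kcnj5, the pores of the acetylcholine-activated channel. Of the pacemaker genes, Hcn2 was detected on all arrays. Hcn4, the main pacemaker gene of the sinus node, was well above background on no array, nor was Hcn3, and of 8 markers of the heart's conduction system Hcn4, Isl1, Shox2 and Cntn2 were at background throughout. Kcne1, the partner of Kcnq1 in the slow delayed rectifier, was well above background on 1 array, of MDX_tap.

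The untested genes included several that are better known from nerve and smooth muscle. The M-current genes Kcnq3 and Kcnq5 were not detected, nor was Scn11a of sensory nerve, nor the large-conductance calcium-activated channel gene Kcnma1. Scn4a, which encodes the sodium channel of limb muscle, was detected on all 6 arrays, with levels of -1.11 and -1.20 in MDX_JJ101, -1.19 and -1.17 in MDX_tap and -0.83 and -0.85 in B10_tap.

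A set of 14 genes was detected in MDX_tap and B10_tap but not on both MDX_JJ101 arrays: Kcne1l, Kcne3, Kcnj10, Kcnj15, Kcnk1, Kcnk9, Kcnk16, Kcnmb1, Kcnn3, Kcnq1ot1, Kcns3, Kcnt2, Scn2b and Scn3a. B10_tap alone had Kcna3, Kcnc4, Kcnd3os, Kcnk15 and Scn2a on both arrays. Kcnn4, a calcium-activated channel gene of blood and immune cells, was detected on both arrays of each MDX group and on 1 of 2 in B10_tap. The order of the 3 groups was the same over all genes with a symbol, of which 59.0%, 64.1% and 65.5% were detected in MDX_JJ101, MDX_tap and B10_tap.

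**Figure D1:**
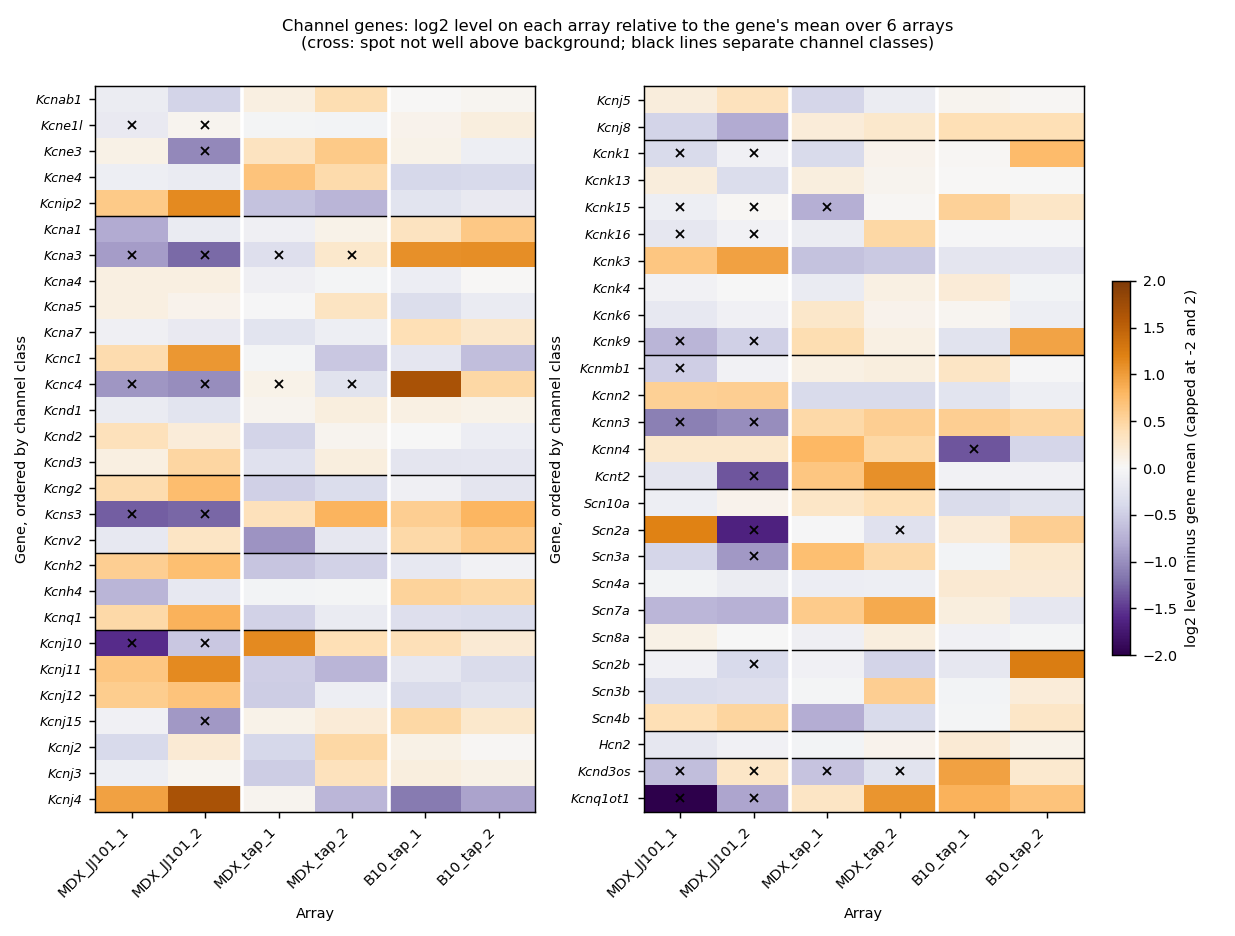
Log2 level on each array of 55 of the 63 tested channel genes, those described in the text (columns, MDX_JJ101 at the left, then MDX_tap, then B10_tap), minus the gene's own mean over the 6 arrays, with crosses where the spot was not well above background. Kcnip2, Kcnj11, Kcnk3 and Kcnj4 stand out as higher in both MDX_JJ101 columns, and most crosses lie in those columns.

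The comparison of MDX_JJ101 with MDX_tap asked how dystrophic samples on the bioceramic water differed from those on tap water. Several channel genes of heart repolarisation and resting potential were higher in MDX_JJ101, led by Kcnj4, Kcnip2, Kcnj11, Kcnk3 and Kcnh2, with differences between 1.17 and 1.64 on the log2 scale. The largest falls among genes detected on all arrays were in Scn7a and Kcnj8, by 1.46 and 0.84. Of the 63 tested genes, 14 rose and 11 fell at a limma adjusted p under 0.05, where 36.1% of all 20861 genes passed, 19.9% upward and 16.1% downward. The class, list and marker counts of this comparison stand against these shares. The median difference over the channel genes was -0.03, against 0.00 over all genes.

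Among the 43 channel genes detected on all 6 arrays, 14 rose (32.6%, against 23.8% of all such genes) and 4 fell (9.3%, against 13.2%). The other 7 genes that passed downward were dim in MDX_JJ101. Kcna3 among them was dim in MDX_tap too, so a fall between the MDX groups was not measured for it. The median over these 43 genes was 0.14, against 0.08 over all genes detected on all arrays. The groups' arrays did not overlap for 45 of the 63 channel genes, where the same held for 72.7% of all genes. A list of 27 channel genes of the heart action potential, written with earlier results of these data known, had 24 tested members, of which 12 rose and 1, Kcnj8, fell, with a median of 0.51.

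These counts depended on scaling and on single arrays. Scaling to spiked-in control RNA put the median of all genes at -0.43 and left 3 channel genes higher (Kcnj4, Kcnip2 and Kcnj11) and 14 lower, whereas centring on the array median put it at 0.23 and gave 18 higher and 9 lower. The spike-in fit had infinite prior degrees of freedom, against 2.21 in the main fit. It thus gave all genes a common variance, and its counts differ from the main ones in variance as well as in scaling. Without MDX_tap replicate 1, 6 channel genes were higher and 4 lower. Without MDX_tap replicate 2 none passed (19 higher and 11 lower at an unadjusted p under 0.05). With slide column as a block none passed either (18 and 14). That fit had 1 residual degree of freedom, against 3 in the main fit, and 0 of all 20861 genes passed in it. For all 25 called genes the MDX groups did not overlap, which by itself fixes the same sign within column 3 and within column 4. None of the 25 changed direction under any scaling.

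**Figure D2:**
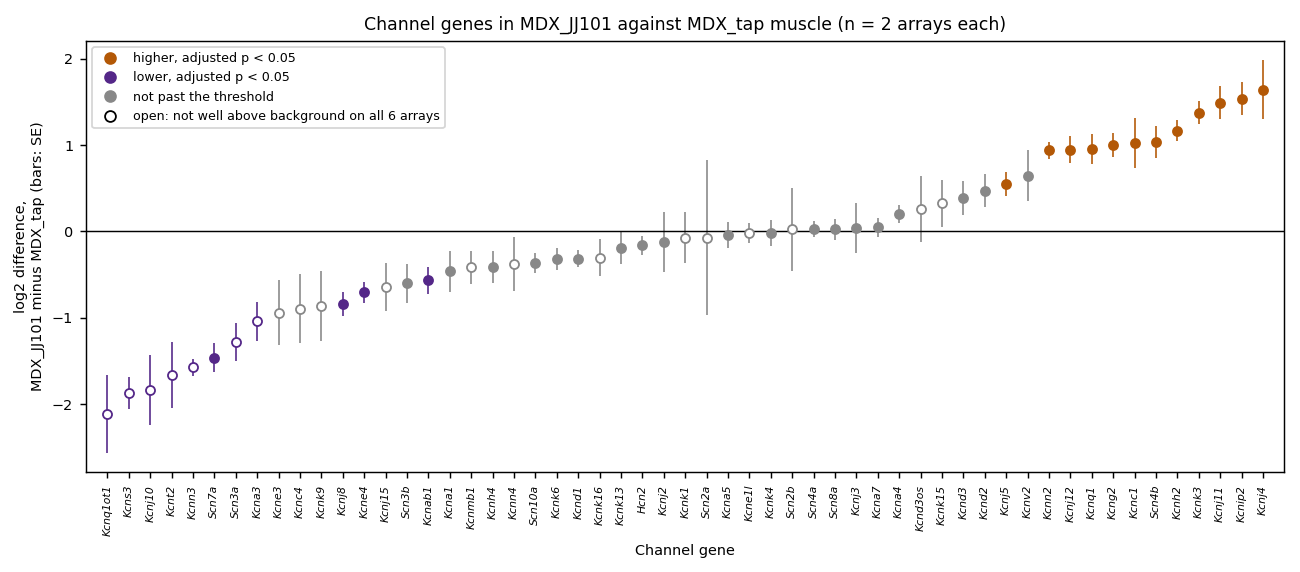
Difference in log2 level between MDX_JJ101 and MDX_tap for the same 55 channel genes in order of size, with the standard error of the fit as bars. The 12 filled orange points passed upward, from Kcnj5 at 0.55 to Kcnj4 at 1.64, and most purple points at the left are open, since they were not well above background on all 6 arrays.

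Promoter sequences are shown for 4 genes that rose, Kcnj4, Kcnip2, Kcnh2 and Scn4b, and for Kcnj8 and Scn7a, which fell and were detected on all arrays, so that the letters at the start sites of genes that moved either way can be read. They were taken from RefSeq on build GRCm38.p6, as windows of 250 bases before to 50 bases after the gene's start, printed 5′ to 3′ on the gene's strand. Capitals mark the GC box GGGCGG, the CACCC element and, in the Scn7a window alone, the GATA motif AGATAA, on either strand. Windows were held for 82 of the 114 genes, among them 7 of the 14 that rose and 10 of the 11 that fell.
Kcnj4, minus strand, chr15:79505192-79505491: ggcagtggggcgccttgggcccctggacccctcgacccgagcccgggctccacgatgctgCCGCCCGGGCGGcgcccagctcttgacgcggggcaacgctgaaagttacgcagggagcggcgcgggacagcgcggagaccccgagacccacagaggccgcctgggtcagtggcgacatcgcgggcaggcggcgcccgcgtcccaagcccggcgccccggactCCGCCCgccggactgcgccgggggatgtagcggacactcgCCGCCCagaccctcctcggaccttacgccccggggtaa
Kcnip2, minus strand, chr19:45816014-45816313: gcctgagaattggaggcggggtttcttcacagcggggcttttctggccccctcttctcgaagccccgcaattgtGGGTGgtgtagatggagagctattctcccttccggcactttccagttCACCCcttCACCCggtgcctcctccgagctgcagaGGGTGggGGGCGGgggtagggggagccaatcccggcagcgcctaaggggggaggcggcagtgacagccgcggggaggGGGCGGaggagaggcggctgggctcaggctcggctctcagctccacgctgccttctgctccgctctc
Kcnh2, minus strand, chr5:24329542-24329841: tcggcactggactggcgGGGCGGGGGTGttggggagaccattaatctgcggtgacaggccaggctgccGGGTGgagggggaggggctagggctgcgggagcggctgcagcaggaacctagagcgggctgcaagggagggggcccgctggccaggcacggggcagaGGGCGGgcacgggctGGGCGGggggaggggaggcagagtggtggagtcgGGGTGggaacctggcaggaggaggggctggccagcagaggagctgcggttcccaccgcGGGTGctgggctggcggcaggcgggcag
Scn4b, plus strand, chr9:45138374-45138673: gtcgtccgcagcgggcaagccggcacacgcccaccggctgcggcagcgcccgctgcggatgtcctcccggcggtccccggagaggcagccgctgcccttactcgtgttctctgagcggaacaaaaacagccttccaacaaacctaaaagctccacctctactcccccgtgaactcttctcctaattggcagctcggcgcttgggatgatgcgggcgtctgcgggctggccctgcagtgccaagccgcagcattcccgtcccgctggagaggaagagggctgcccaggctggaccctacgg
Kcnj8, minus strand, chr6:142571565-142571864: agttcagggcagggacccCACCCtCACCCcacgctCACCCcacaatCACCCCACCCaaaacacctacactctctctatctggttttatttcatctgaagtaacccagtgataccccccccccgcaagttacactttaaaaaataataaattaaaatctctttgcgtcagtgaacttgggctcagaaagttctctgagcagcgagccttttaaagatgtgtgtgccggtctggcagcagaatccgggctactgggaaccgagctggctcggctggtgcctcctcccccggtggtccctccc
Scn7a, minus strand, chr2:66784861-66785160: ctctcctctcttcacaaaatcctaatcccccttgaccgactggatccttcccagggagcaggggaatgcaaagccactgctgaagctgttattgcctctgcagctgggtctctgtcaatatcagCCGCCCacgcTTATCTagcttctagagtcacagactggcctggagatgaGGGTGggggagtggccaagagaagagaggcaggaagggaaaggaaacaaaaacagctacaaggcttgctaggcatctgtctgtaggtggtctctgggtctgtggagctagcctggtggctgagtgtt

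GC boxes were found in the windows of Kcnj4, Kcnip2 and Kcnh2, which rose, and of Scn7a, which fell, and in neither that of Scn4b, which rose, nor that of Kcnj8, which fell. CACCC was found in the windows of Kcnip2, Kcnh2, Kcnj8 and Scn7a. Counting every window held, where a gene can have several starts, a GC box was in 5 of 7 windows of genes that rose and 6 of 13 windows of genes that fell, and CACCC in 4 of 7 and 10 of 13. Of all 32851 RefSeq windows of this length, 35.7% held a GC box and 57.5% held CACCC. Of the 109 windows of channel genes, 44.0% held a GC box and 77.1% held CACCC. A match to either is therefore common, and both occurred in windows of genes that moved either way. The GATA motif, in 11.2% of all windows, was found in that of Scn7a alone among the 6. The E-box CACGTG, the glucocorticoid receptor core ACANNNTGT, the D-box TTATGTAA, the cyclic AMP element TGACGTCA and the MEF2 motif, searched on both strands, were found in none of the 6. Bases made up of G or C were 76.0% of the Kcnj4 window, 67.0% of the Kcnip2 window, 74.3% of the Kcnh2 window and 66.3% of the Scn4b window, and 53.3% of the Kcnj8 window and 54.0% of the Scn7a window. This share was read for the 6 printed windows only, so it was not compared between genes that rose and genes that fell. A match is a description of the letters and no site of binding.

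Inward rectifiers hold the resting potential and, as ATP-sensitive channels, open when the cell's energy falls. Of the 10 tested, 4 rose and 2 fell in MDX_JJ101 against MDX_tap. Kcnj4, which encodes one of the strong inward rectifiers, had levels of -0.41 and 0.30 in MDX_JJ101, -1.32 and -2.07 in MDX_tap and -2.50 and -2.22 in B10_tap. Both MDX_JJ101 arrays lay above all others, and it rose by 1.64 ± 0.34 (SE; 3.11-fold, adjusted p = 0.0224, n = 2 each), with 0.91 within column 3 and 2.37 within column 4. Kcnj12, another strong inward rectifier, had 2.05 and 2.15 in MDX_JJ101, 0.96 and 1.35 in MDX_tap and 1.10 and 1.20 in B10_tap. It rose by 0.94 ± 0.16 (1.92-fold, adjusted p = 0.0151), again without overlap.

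Kcnj2, the third strong inward rectifier of heart and limb muscle, had -2.29 and -1.68 in MDX_JJ101, -2.31 and -1.41 in MDX_tap and -1.80 and -1.87 in B10_tap. These levels overlapped in all 3 groups, and the MDX_JJ101 minus MDX_tap difference was -0.13 ± 0.35 (adjusted p = 0.792). The acetylcholine-activated channel of atrial and pacemaking cells joins Kcnj3 and Kcnj5. Kcnj5 had 3.49 and 3.68 in MDX_JJ101, 2.90 and 3.18 in MDX_tap and 3.38 and 3.35 in B10_tap, and rose by 0.55 ± 0.14 over MDX_tap (1.46-fold, adjusted p = 0.0354). Its partner Kcnj3 had -0.55 and -0.39 in MDX_JJ101, -0.94 and -0.08 in MDX_tap and -0.28 and -0.34 in B10_tap, with overlapping MDX groups and a difference of 0.04 ± 0.29 between them.

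The pores of the ATP-sensitive channel, Kcnj11 and Kcnj8, moved in opposite directions. Kcnj11 had 2.68 and 3.18 in MDX_JJ101, 1.55 and 1.33 in MDX_tap and 1.83 and 1.68 in B10_tap. It rose by 1.49 ± 0.20 over MDX_tap (2.81-fold, adjusted p = 0.0129), with 1.13 and 1.85 in the 2 columns. A second, dimmer probe of Kcnj11 gave a difference of 0.38 ± 0.22 (adjusted p = 0.234), so the rise was seen with 1 of its 2 probes. Kcnj8, the pore in vascular smooth muscle and also in heart, had 0.41 and 0.08 in MDX_JJ101, 1.04 and 1.13 in MDX_tap and 1.26 and 1.26 in B10_tap. It fell by 0.84 (SE 0.14; 1.79-fold lower, adjusted p = 0.0152).

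The regulatory subunits of these pores were read from a list of 20 partner genes, also written with earlier results known. Abcc8, the sulfonylurea receptor gene next to Kcnj11 in atrial and pancreatic channels, had 4.20 and 4.54 in MDX_JJ101, 3.21 and 3.31 in MDX_tap and 3.36 and 3.29 in B10_tap. It rose by 1.11 ± 0.14 over MDX_tap (2.16-fold, adjusted p = 0.0128). Abcc9, the receptor gene of ventricular and vascular channels, had 3.59 and 3.85 in MDX_JJ101, 3.75 and 4.06 in MDX_tap and 3.76 and 3.82 in B10_tap, with overlapping groups and a difference of -0.18 ± 0.15 (adjusted p = 0.373). Of 16 tested partners, 6 rose and 3 fell (Dpp6, Fgf11 and Fgf12). Among those that rose, Cav3 and Ank3, which hold channels at the muscle membrane, did so by 0.53 and 0.77, and the other probes of Ank3 gave 0.02 and 0.51.

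Most endothelial markers fell as Kcnj8 did, whereas smooth muscle markers did so only in part. Of 7 endothelial markers 5 fell in MDX_JJ101 against MDX_tap and 0 rose, and the log2 of their summed signal was 5.63 and 5.44 in MDX_JJ101, 6.17 and 6.14 in MDX_tap and 6.13 and 6.04 in B10_tap. Of 8 smooth muscle markers 3 fell (Myh11, Tagln and Rgs5) and 0 rose, with summed signals of 6.98 and 7.09 in MDX_JJ101, 7.14 and 7.36 in MDX_tap and 6.97 and 6.98 in B10_tap. By sign alone 7 of the 8 were lower than in MDX_tap, and Acta2 was higher by 0.23 without passing. Against B10_tap, Acta2 passed as higher in MDX_JJ101, by 0.89, and 2 of the markers passed as lower. None of these 15 markers was at background on all arrays, and their part in the fall of Kcnj8 was not tested.

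Voltage-gated potassium channels repolarise the action potential. Kcnip2 encodes the subunit that brings the transient outward channels Kcnd2 and Kcnd3 to the membrane. It had 1.74 and 2.27 in MDX_JJ101, 0.53 and 0.42 in MDX_tap and 0.87 and 0.95 in B10_tap. Both MDX_JJ101 arrays lay above the rest, and it rose by 1.53 ± 0.19 over MDX_tap (2.90-fold, adjusted p = 0.0128), with 1.22 and 1.85 in the 2 columns.

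The pores that Kcnip2 serves did not pass. Kcnd2 had 1.88 and 1.69 in MDX_JJ101, 1.07 and 1.56 in MDX_tap and 1.50 and 1.39 in B10_tap, a difference of 0.47 ± 0.19 over MDX_tap (adjusted p = 0.109). Kcnd3 had 1.63 and 2.00 in MDX_JJ101, 1.20 and 1.64 in MDX_tap and 1.25 and 1.27 in B10_tap, a difference of 0.39 ± 0.20 (adjusted p = 0.174). Kcnd2 did not overlap between the MDX groups, and Kcnd3 did. Kcna4, the pore of the slow transient outward current, had 3.21 and 3.22 in MDX_JJ101, 2.99 and 3.05 in MDX_tap and 2.94 and 3.09 in B10_tap, a difference of 0.20 ± 0.10 (adjusted p = 0.176).

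Among the delayed rectifiers, Kcnh2 had 1.45 and 1.62 in MDX_JJ101, 0.31 and 0.43 in MDX_tap and 0.69 and 0.82 in B10_tap. It rose by 1.17 ± 0.12 over MDX_tap (2.25-fold, adjusted p = 0.0128), and its 3 groups were separated from each other. Kcnq1 had 3.57 and 3.94 in MDX_JJ101, 2.64 and 2.95 in MDX_tap and 2.78 and 2.75 in B10_tap, and rose by 0.96 ± 0.17 (1.94-fold, adjusted p = 0.0170). Kcna5, the pore of the ultrarapid current, had 1.24 and 1.17 in MDX_JJ101 and 1.08 and 1.42 in MDX_tap, which overlapped, and a difference of -0.04 ± 0.15.

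**Figure D3:**
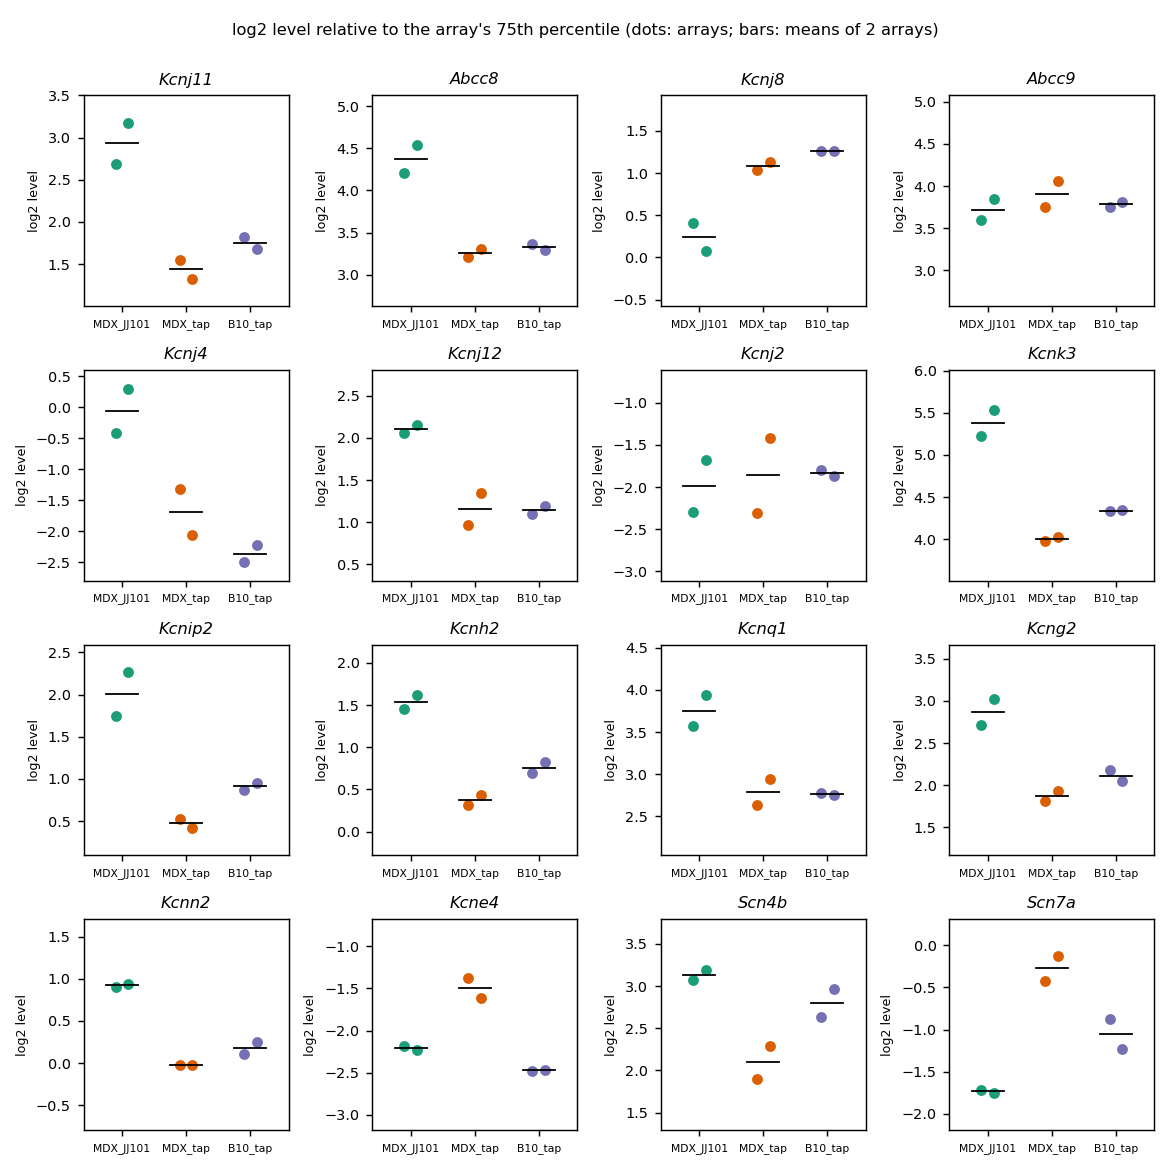
Log2 level on each array (dots) and group mean (bars) for 14 channel genes and the partner genes Abcc8 and Abcc9, with MDX_JJ101 at the left of each panel, then MDX_tap, then B10_tap; each panel has its own vertical range. Kcnj11, Abcc8, Kcnj4, Kcnk3 and Kcnip2 lie higher on both MDX_JJ101 arrays, Kcnj8 and Scn7a lie lower, and Kcnj2 and Abcc9 overlap between groups.

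Accessory and modifier genes of this class moved both ways. Kcng2, a silent subunit that forms channels only with other pores and is expressed in heart, had 2.72 and 3.02 in MDX_JJ101, 1.81 and 1.93 in MDX_tap and 2.18 and 2.05 in B10_tap. It rose by 1.00 ± 0.14 over MDX_tap (2.00-fold, adjusted p = 0.0131), and its second probe gave 0.91. Kcnc1, a fast delayed rectifier of nerve and muscle, had -2.55 and -1.94 in MDX_JJ101, -3.01 and -3.52 in MDX_tap and -3.20 and -3.61 in B10_tap, and rose by 1.02 ± 0.29 (2.03-fold, adjusted p = 0.0465). It passed under 6 of 18 alternatives, with adjusted p between 0.0246 and 0.331.

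Kcne4, whose protein inhibits the Kcnq1 channel, had -2.18 and -2.23 in MDX_JJ101, -1.38 and -1.62 in MDX_tap and -2.48 and -2.46 in B10_tap. It was highest on both MDX_tap arrays, and in MDX_JJ101 it fell by 0.71 (SE 0.12; 1.63-fold lower, adjusted p = 0.0152). Kcnab1, a cytoplasmic beta subunit gene, had -1.38 and -1.66 in MDX_JJ101, -1.10 and -0.81 in MDX_tap and -1.21 and -1.19 in B10_tap. It fell by 0.57 in MDX_JJ101 against MDX_tap (SE 0.15; 1.48-fold lower, adjusted p = 0.0417).

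The leak channel gene Kcnk3 and the small-conductance calcium-activated channel gene Kcnn2 both contribute to repolarisation in atrial muscle. Kcnk3 had 5.22 and 5.54 in MDX_JJ101, 3.98 and 4.03 in MDX_tap and 4.33 and 4.35 in B10_tap. It rose by 1.38 ± 0.13 over MDX_tap (2.60-fold, adjusted p = 0.0125) and was the only 1 of 8 tested leak channel genes to pass. Kcnn2 had 0.91 and 0.94 in MDX_JJ101, -0.02 and -0.02 in MDX_tap and 0.11 and 0.25 in B10_tap. It rose by 0.94 ± 0.10 (1.92-fold, adjusted p = 0.0128), with no overlap between any groups.

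The pore of a voltage-gated sodium channel is its alpha subunit, which works with smaller beta subunits. Of 7 tested alpha subunit genes none rose and 2 fell. Scn4b, a beta subunit gene, had 3.08 and 3.19 in MDX_JJ101, 1.90 and 2.29 in MDX_tap and 2.64 and 2.97 in B10_tap, and rose by 1.04 ± 0.19 (2.05-fold, adjusted p = 0.0170).

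Scn4a, the limb muscle pore gene, differed by 0.03 ± 0.09 between the MDX groups (adjusted p = 0.851). Scn8a, a pore gene of nerve that is also present in heart, had 2.25 and 2.15 in MDX_JJ101, 2.05 and 2.30 in MDX_tap and 2.07 and 2.12 in B10_tap. Its MDX groups overlapped, with a difference of 0.03 ± 0.12. Scn7a encodes an atypical sodium channel that senses extracellular sodium and is found in Schwann cells and heart. It had -1.71 and -1.76 in MDX_JJ101, -0.42 and -0.13 in MDX_tap and -0.88 and -1.23 in B10_tap. Each group was separated from the others, and in MDX_JJ101 it fell by 1.46 (SE 0.17; 2.75-fold lower, adjusted p = 0.0128).

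Scn3a, a pore gene of neurons, had -2.70 and -3.21 in MDX_JJ101, where 1 array was well above background, -1.54 and -1.81 in MDX_tap and -2.33 and -2.02 in B10_tap. It fell by 1.28 (SE 0.22; 2.42-fold lower, adjusted p = 0.0157). A second, dimmer probe of Scn3a gave -1.37, with -3.33 and -3.99 in MDX_JJ101. The lowest levels well above background on those arrays were -3.33 and -3.29, so the size of that fall could not be measured. Of the 13 genes of a nerve channel list found on the array, 7 were tested, of which 3 fell (Scn3a, Scn7a and the glial inward rectifier gene Kcnj10) and 0 rose, with a median of -0.46. Markers of Schwann cells and nerve did not move as a group: of 13, 10 were well above background on all arrays, Nefl and Nefm on none, 2 fell, Pmp22 among them, and 1 rose (Snap25). Their summed log2 signal was 5.96 and 5.99 in MDX_JJ101, 5.74 and 5.92 in MDX_tap and 5.77 and 5.77 in B10_tap, and their part in the nerve channel values was not tested.

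The remaining falls were in genes that were at or near background in MDX_JJ101, so most of their differences are bounds or have no fold. The adjusted p beside a bound is that of the fit to the signals as read, and the bound itself was not tested. Kcnq1ot1, the imprinted non-coding transcript that runs antisense through Kcnq1, had -5.28 and -4.07 in MDX_JJ101, -2.94 and -2.19 in MDX_tap and -2.41 and -2.56 in B10_tap. Measured against the lowest level well above background, it was at least 1.68-fold lower in MDX_JJ101 than in MDX_tap (adjusted p = 0.0235). Kcnn3, a small-conductance calcium-activated channel gene, had -4.82 and -4.73 in MDX_JJ101, -3.26 and -3.15 in MDX_tap and -3.16 and -3.23 in B10_tap, and was at least 1.08-fold lower (adjusted p = 0.0123). Kcnj10 was at least 1.05-fold lower (adjusted p = 0.0253), with means of -5.07 in MDX_JJ101, -3.24 in MDX_tap and -3.71 in B10_tap.

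Kcnt2, a sodium-activated potassium channel gene, had -3.06 and -4.17 in MDX_JJ101, with 1 array well above background, -2.17 and -1.74 in MDX_tap and -2.89 and -2.91 in B10_tap. The fitted log2 difference between the MDX groups was -1.66 ± 0.38 (adjusted p = 0.0275), and it was -1.11 without the dim array, MDX_JJ101 replicate 2. No fold is given for the silent subunit gene Kcns3, with means of -5.32 in MDX_JJ101 and -3.45 in MDX_tap (adjusted p = 0.0125). None is given either for the lymphocyte channel gene Kcna3, which was above background on no array of either MDX group (adjusted p = 0.0246) and which passed under 8 of 17 alternatives. It entered the test only through B10_tap, so its call compares background signals and no fall was measured.

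Lists of other cells' channels gave small counts. Of the 9 tested genes of a limb muscle list, 3 rose, Kcnc1 and Kcnj11 among them, and 1 fell (Kcnn3), with a median of 0.03. Kcna7, a delayed rectifier gene of limb muscle and heart, had 1.95 and 1.88 in MDX_JJ101, 1.80 and 1.94 in MDX_tap and 2.46 and 2.33 in B10_tap. Its MDX groups overlapped and differed by 0.05 ± 0.11, whereas its second, dimmer probe gave -0.65 (adjusted p = 0.0430). On the smooth muscle channel list, 4 genes were tested, of which 1 rose and 1, Kcnj8, fell. Of 4 tested immune channel genes none rose and 1, Kcna3, passed downward, though it was above background on no array of either MDX group. Of 6 tested macrophage markers 5 fell and 1 rose (Itgam, by 0.39, whose other probes gave -0.42 and -0.32), with a summed log2 signal of 6.46 and 6.39 in MDX_JJ101, 6.88 and 6.65 in MDX_tap and 6.50 and 6.43 in B10_tap, and 3 of 7 fibroblast markers fell. Their part in the channel values was not tested.

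Hcn2, which encodes a pacemaker channel, had 5.70 and 5.82 in MDX_JJ101, 5.86 and 5.98 in MDX_tap and 6.12 and 6.01 in B10_tap. The MDX groups did not overlap and differed by -0.16 ± 0.11 (adjusted p = 0.293). A second, dimmer probe of Hcn2 gave the opposite sign, 0.98 ± 0.13 (adjusted p = 0.0139), with 2.28 and 2.49 in MDX_JJ101, 1.45 and 1.35 in MDX_tap and 1.51 and 1.39 in B10_tap, so no direction is given for the gene. Of the 9 channel genes with at least 2 probes above background, Kcne1l and Kcne3 also had a second probe that passed (-1.73 and -0.92). The probe with the higher mean over the 6 arrays did not (-0.02 and -0.94). For Kcne1l the second probe was the brighter in MDX_tap, with -2.59 and -3.20 against -3.32 and -3.33. It was also the brighter in B10_tap, with -2.38 and -2.73 against -3.21 and -3.13, so the choice of probe rested on the MDX_JJ101 levels. In MDX_JJ101 these second probes had -4.06 and -5.19 (Kcne1l) and -3.27 and -3.37 (Kcne3). These levels were under or near the lowest level well above background, so the sizes of both falls could not be measured.

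The 38 tested channel genes that did not pass between the MDX groups had differences from -0.94 (Kcne3) to 0.65 (Kcnv2). Kcnd1, a further transient outward pore gene, had 0.86 and 0.76 in MDX_JJ101, 1.08 and 1.17 in MDX_tap and 1.14 and 1.10 in B10_tap, a difference of -0.32 ± 0.10 (adjusted p = 0.0594), with no overlap between the MDX groups. The beta subunit gene Scn3b had -0.04 and -0.02 in MDX_JJ101, 0.27 and 0.88 in MDX_tap and 0.25 and 0.49 in B10_tap, a difference of -0.60 ± 0.22 (adjusted p = 0.0859).

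None of the leak channel genes other than Kcnk3 passed between the MDX groups. Kcnk4, a channel gated by stretch and temperature, had -0.89 and -0.83 in MDX_JJ101, -0.98 and -0.70 in MDX_tap and -0.62 and -0.86 in B10_tap, with a difference of -0.02 ± 0.15 between the MDX groups. Kcnk6 and Kcnk13 differed by -0.32 ± 0.12 and -0.19 ± 0.19, with adjusted p of 0.100 and 0.450. Kcnk1, Kcnk9, Kcnk15 and Kcnk16 were well above background on no MDX_JJ101 array, and Kcnk2, a stretch-activated channel gene of muscle, on no array at all.

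The comparison of MDX_JJ101 with B10_tap set the treated dystrophic samples against wild-type samples, which differed in genotype, water, slide row and slide column at once. It shares its MDX_JJ101 arrays with the comparison above, so the counts are not independent. Of the 63 tested genes 12 were higher and 11 lower, where 33.6% of all genes passed, 16.2% upward and 17.4% downward. The median over the channel genes was -0.16, against -0.01 over all genes.

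Of the genes higher in MDX_JJ101 than in B10_tap, Kcnj4 differed by 2.30 ± 0.34 (4.93-fold, adjusted p = 0.0134). Kcnj11 followed with 1.18 ± 0.20 (adjusted p = 0.0158), Kcnc1 with 1.16 ± 0.29 (adjusted p = 0.0359) and Kcnip2 with 1.10 ± 0.19 (adjusted p = 0.0171). The second probe of Kcnj11 had the opposite sign here, -0.35 ± 0.22 (adjusted p = 0.267). Kcnk3, Kcnq1, Kcnj12, Kcnh2, Kcng2 and Kcnn2 were higher by 1.04, 0.99, 0.95, 0.78, 0.76 and 0.74. On the heart action potential list 9 of 24 tested genes were higher and Kcnj8 was lower, where 16.2% of all genes were higher and 17.4% lower. Scn4b and Kcnj5, which rose over MDX_tap, differed from B10_tap by 0.33 and 0.22, with adjusted p of 0.219 and 0.258.

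Kcnn4, the channel gene of blood and immune cells, had -2.75 and -2.76 in MDX_JJ101, -2.22 and -2.52 in MDX_tap and -4.35 and -3.44 in B10_tap, where only the second array was well above background. It was higher by 1.14 ± 0.31 in MDX_JJ101 than in B10_tap (adjusted p = 0.0436), a size that rests in part on the dim B10_tap array. It passed under 4 of 16 alternatives, over which the difference ran between 0.30 and 1.60 and the adjusted p between 0.0108 and 0.233. None of the 6 tested macrophage markers passed in this comparison.

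Among lower genes detected on all arrays, Kcna1, a delayed rectifier gene of axons, had -1.72 and -1.08 in MDX_JJ101, -1.03 and -0.85 in MDX_tap and -0.58 and -0.29 in B10_tap. The groups did not overlap, and MDX_JJ101 was lower than B10_tap by 0.96 (the log2 difference was -0.96 ± 0.24, adjusted p = 0.0355). Kcnh4, an ether-a-go-go family gene best known from brain, had -1.17 and -0.66 in MDX_JJ101, -0.51 and -0.50 in MDX_tap and 0.06 and 0.02 in B10_tap, a difference of -0.95 ± 0.18 from B10_tap (adjusted p = 0.0201). Kcnj8, Scn7a and Kcna7 differed by -1.01, -0.68 and -0.48.

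Of the dim genes, Kcnq1ot1 was at least 1.78-fold lower in MDX_JJ101 than in B10_tap, Kcnn3 at least 1.09-fold and Kcna3 at least 1.04-fold. Kcnc4, a fast delayed rectifier gene of limb muscle and nerve, was above background in B10_tap alone, and no fold is given for it. Its levels were -5.39 and -5.45 in MDX_JJ101, -4.34 and -4.70 in MDX_tap and -2.76 and -3.95 in B10_tap (adjusted p = 0.0204 for MDX_JJ101 over B10_tap). Kcnc4 and Kcna3 entered the test only through B10_tap. The filter thus favoured lower values in the other groups, and their place among the lower genes is no support for a fall. Scn3a also passed, with -0.78 ± 0.22 (adjusted p = 0.0469), though under only 4 of 16 alternatives, and Kcns3 passed with no fold.

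The counts against B10_tap also depended on scaling and on single arrays. Scaling to spike-ins put the median of all genes at -0.46 and left Kcnj4 as the 1 higher channel gene against 19 lower, and median centring put it at 0.39 and gave 25 higher and 6 lower. Here too the spike-in fit gave all genes a common variance. Without B10_tap replicate 1 none passed (12 higher and 12 lower at an unadjusted p under 0.05), and without replicate 2 none was higher (11 at an unadjusted p under 0.05) and 1, Kcnc4, was lower.

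**Figure D4:**
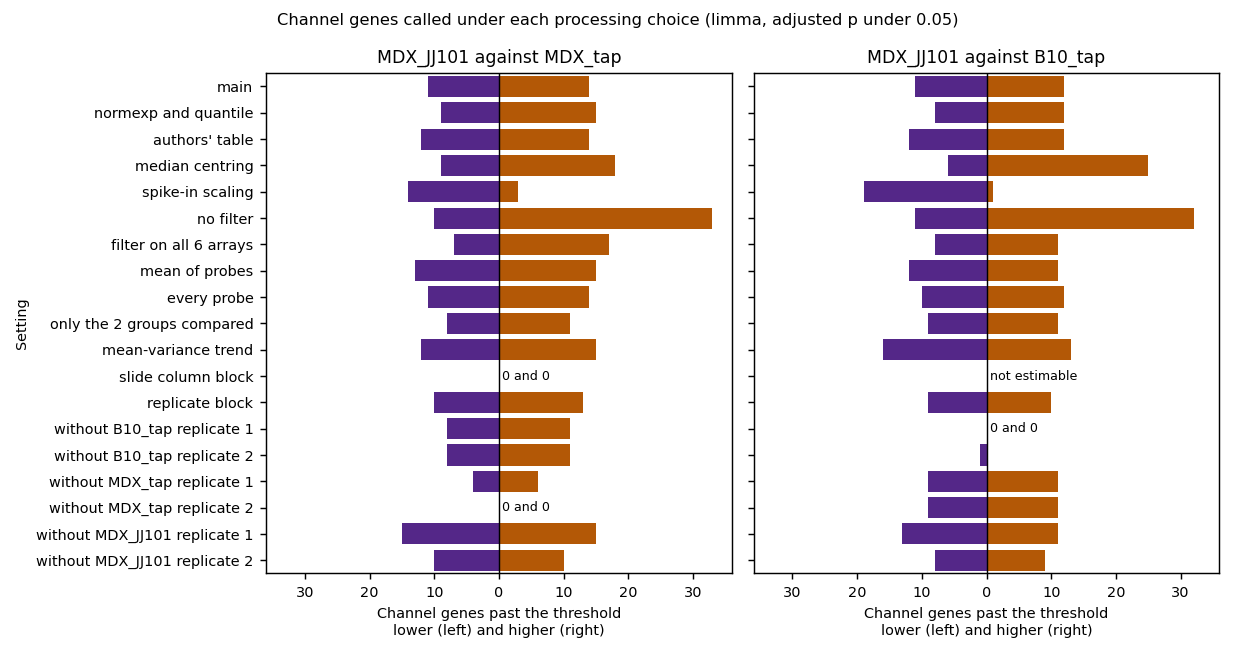
Number of channel genes past a limma adjusted p of 0.05 under each processing choice, higher to the right and lower to the left of 0, for MDX_JJ101 against MDX_tap at the left and against B10_tap at the right. Scaling to spike-ins leaves 3 and 1 higher genes, and no gene passes against MDX_tap with slide column as a block or without MDX_tap replicate 2.

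The comparison of MDX_tap with B10_tap asked what distinguished dystrophic from wild-type muscle on tap water. No channel gene passed the limma threshold, where 0.024% of all genes did (0 higher and 5 lower of 20861). At an unadjusted p under 0.05 there were 5 higher and 12 lower channel genes, in all 27.0% of those tested, against 21.0% of all genes. The channel genes had a median difference of -0.10, against -0.06 over all genes, and the arrays did not overlap for 39 of the 63, against 61.4% of all genes.

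Kcne4 had the lowest adjusted p, 0.0681, with -1.38 and -1.62 in MDX_tap and -2.48 and -2.46 in B10_tap, a difference of 0.97 ± 0.12. It passed under 4 other processing choices. Kcnn4 differed by 1.52 ± 0.31 (adjusted p = 0.114), Scn7a by 0.78 ± 0.17 (adjusted p = 0.121), Scn10a, a gene of pain-sensing nerve, by 0.65 ± 0.12 (adjusted p = 0.103) and Kcna5 by 0.40 ± 0.15 (adjusted p = 0.228). On the other side Kcna7 differed by -0.53 ± 0.11 (adjusted p = 0.116) and Scn4b by -0.71 ± 0.19 (adjusted p = 0.150).

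Kcnv2, a silent subunit gene, had -2.02 and -1.28 in MDX_tap and -0.60 and -0.45 in B10_tap, a difference of -1.12 ± 0.30 (adjusted p = 0.149). Kcna3 was above background on no MDX_tap array and on both of B10_tap, and was at least 1.69-fold lower in MDX_tap. Its adjusted p of 0.112 is that of the fit and not of the bound, and the gene entered the test through B10_tap alone. Scn2a, a pore gene of neurons, was detected on both arrays of B10_tap alone. Its levels were -2.56 and -5.39 in MDX_JJ101, -3.77 and -4.04 in MDX_tap and -3.55 and -3.17 in B10_tap, and the MDX_JJ101 arrays differed more from each other than any groups did.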

How the data were processed

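A total of 6 samples of mouse muscle RNA were measured on Agilent arrays with 1 colour. Agilent Feature Extraction 11.5.1.1 produced the deposited intensity files, per the submitters' processing notes. Per the file headers, the processed signal is background-subtracted and detrended, and the other deposited columns are median spot and background intensities and 0 or 1 flags. The authors' deposited table held log2 values whose steps are not given in the sources used here. Each of its columns had the rank order of the median spot signal (Spearman correlation of 1) and medians between 5.68 and 5.69, and it served as an alternative.

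Levels here are log2 processed signals minus the array's 75th percentile over 59305 non-control spots. Outlier spots were left out and spots of a probe averaged. Probes were paired with symbols through RefSeq accessions (27656 of 55681 probes, gene table of GRCm38.p6). Probes entered if they were well above background on both arrays in any group, and a gene is its kept probe with the highest mean. This gave 20861 genes and transcripts. A fold is a bound ("at least") where no array of a group was well above background, computed against that group's lowest levels well above background; none is given where that bound is under 1 or both groups are dim. Array number limits precision.

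A single limma model (limma 3.58.1, R 4.3.3; 3 residual and 2.21 prior degrees of freedom) covered the 3 groups. Its two-sided p-values were adjusted over all genes by the Benjamini-Hochberg method, with 0.05 as the threshold. The fit was tested on simulated data. Alternatives were background correction with normexp (offset 50, on median spot signals, since mean signals were not used here) and quantile normalization, the authors' table, 2 other scalings, other filters and probe rules, a fit of only the groups compared, a variance trend, blocks, and each array left out. Values are given for the 10 highest and lowest genes that passed in each comparison (or, below 5, the 5 smallest p), for list members that carry a result and for genes detected in 1 group and not in another. The members, lists and tests were chosen with earlier results of these data known. The lists were heart action potential, limb muscle, nerve, smooth muscle and immune channels, channel partners, and the marker lists. Promoter windows are RefSeq's. Some genes are counted in the totals and not reported here by name.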

Additional observations from a re-analysis of the deposited data

How the results depend on the processing

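Detection counts moved by less than 1.5 times when 1 array sufficed or a looser flag was used (55 or 60 genes in MDX_JJ101, 62 or 75 in MDX_tap, 65 or 80 in B10_tap). Between MDX_tap and B10_tap, where 0 channel genes passed, 2 were higher and 1 lower with normexp and quantile normalization (Kcne4, Scn7a and Kcna7), 2 higher in the authors' table (Kcne4 and Scn7a), 1 higher with median centring or the filter on all 6 arrays (Kcne4) and 1 higher with spike-in scaling (Kcnn4). Between MDX_JJ101 and MDX_tap, where 14 were higher and 11 lower, 3 were higher with spike-in scaling, 33 without a filter (which adds dim genes) and 0 with the slide column block; 7 were lower with the filter on all 6 arrays and 0 with the column block. Leaving out each array gave 0 to 15 higher and 0 to 15 lower, with the lowest counts without MDX_tap replicate 1 (6 and 4) and replicate 2 (0 and 0). Between MDX_JJ101 and B10_tap, where 12 were higher and 11 lower, 25 were higher and 6 lower with median centring, 1 higher and 19 lower with spike-in scaling and 32 higher without a filter. Leaving out each array gave 0 to 11 higher and 0 to 13 lower, with 0 higher without B10_tap replicate 1 or replicate 2. No named gene that passed changed sign under any alternative run. The cause of these shifts was not tested. Deviations of samples with equal replicate numbers had a correlation of 0.16 between the MDX groups, where equal numbers also share a slide column. The correlations with B10_tap were -0.06 for MDX_JJ101 and -0.03 for MDX_tap, and whether replicate numbers pair the samples cannot be settled from these values. With a replicate block 13 were higher and 10 lower over MDX_tap, 10 higher and 9 lower over B10_tap, and 0 between MDX_tap and B10_tap. With 2 arrays a group and a higher background limit in MDX_JJ101, differences of dim genes could not be measured.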
